A study of Mus musculus with 8 samples.

Results

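H3K27me3 was measured by ChIP-seq in neural stem cells (NSCs), and the regions described here are the autosomal stretches of this mark that lay inside genes without covering where a gene begins. A region was a member if it lay on chromosomes 1 to 19, was under 50000 bp long, overlapped at least 1 protein-coding gene of the GENCODE M21 annotation (GRCm38) and held no protein-coding gene start. 3026 of the 13585 regions of the deposited table met this rule, and 11707 of the regions were autosomal. The closest comparators were 3866 autosomal regions under 50 kb that held a gene start and 4107 autosomal regions under 50 kb that overlapped no protein-coding gene, called intergenic here.

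The NSCs were grown from the embryonic cortex of female C57BL/6J mice and kept for fewer than 10 passages. Both genotypes carried a GFP tag on endogenous Smchd1, a chromatin protein with a part in silencing. The WT cells were Smchd1GFP+/+, and the mutant cells were Smchd1GFPMommeD43/MommeD43, homozygous for the MommeD43 missense variant, called MommeD43 below. Each genotype had 3 ChIP libraries from separate cell lines and 1 whole cell extract (WCE) library. The table gives the authors' log2 normalised read count per region as 1 pooled value per genotype, so no library can be shown on its own, no difference has a replicate check and no test was possible.

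Polycomb repressive complex PRC2 places H3K27me3 on nucleosomes, and the mark is bound by PRC1 and goes with a silent state of the gene. In vertebrates it gathers over CpG islands, CpG-rich stretches that often hold the starts of developmental genes, and it can spread from them along silent genes and the DNA between genes. Long genes often hold further promoters inside their bodies, some of them in CpG islands. The comparison asked where the mark differed between MommeD43 and WT cells.

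The sequences of members with extreme values show the range of DNA in these regions. Each line below gives the host gene, the place in GRCm38.p6 and the 200 bp window with the most CpG in that member outside annotated UTRs, read on the plus strand of the RefSeq assembly, 5′ to 3′, with every CpG in capitals. The first 3 windows come from members with the largest excess in MommeD43, the next 2 from the members with the highest mean log2 density over both genotypes, and the last 3 from members with the largest deficit.
Tmem200c chr17:68841746-68841945: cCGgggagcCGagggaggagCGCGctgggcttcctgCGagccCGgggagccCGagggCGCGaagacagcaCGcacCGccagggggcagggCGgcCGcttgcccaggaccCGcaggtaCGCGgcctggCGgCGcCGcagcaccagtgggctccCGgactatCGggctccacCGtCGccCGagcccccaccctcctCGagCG
Nos1 chr5:117842341-117842540: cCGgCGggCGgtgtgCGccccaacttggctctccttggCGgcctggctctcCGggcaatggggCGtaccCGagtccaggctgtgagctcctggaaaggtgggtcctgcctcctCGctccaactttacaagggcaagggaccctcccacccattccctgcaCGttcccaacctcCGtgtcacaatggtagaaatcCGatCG
Asic2 chr11:81152229-81152428: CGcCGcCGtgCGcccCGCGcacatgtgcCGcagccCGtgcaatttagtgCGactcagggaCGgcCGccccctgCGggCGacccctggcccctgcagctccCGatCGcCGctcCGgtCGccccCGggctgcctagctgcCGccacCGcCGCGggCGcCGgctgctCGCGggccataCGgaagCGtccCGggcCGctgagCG
Mecom chr3:30508739-30508938: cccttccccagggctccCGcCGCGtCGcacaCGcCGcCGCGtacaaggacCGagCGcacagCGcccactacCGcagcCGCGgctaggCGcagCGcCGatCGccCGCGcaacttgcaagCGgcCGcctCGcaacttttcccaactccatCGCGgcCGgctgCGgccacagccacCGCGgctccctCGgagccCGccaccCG
Otud7a chr7:63758160-63758359: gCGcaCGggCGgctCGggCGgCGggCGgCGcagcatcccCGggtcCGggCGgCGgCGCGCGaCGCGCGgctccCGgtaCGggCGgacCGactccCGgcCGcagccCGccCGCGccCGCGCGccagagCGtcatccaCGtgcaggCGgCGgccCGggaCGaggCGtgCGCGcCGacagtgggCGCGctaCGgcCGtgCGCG
Foxp2 chr6:15296640-15296839: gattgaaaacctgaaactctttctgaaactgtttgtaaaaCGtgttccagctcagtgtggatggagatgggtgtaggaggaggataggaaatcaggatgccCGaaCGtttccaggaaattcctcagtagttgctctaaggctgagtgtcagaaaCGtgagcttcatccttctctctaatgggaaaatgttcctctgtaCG
Foxp2 chr6:15212559-15212758: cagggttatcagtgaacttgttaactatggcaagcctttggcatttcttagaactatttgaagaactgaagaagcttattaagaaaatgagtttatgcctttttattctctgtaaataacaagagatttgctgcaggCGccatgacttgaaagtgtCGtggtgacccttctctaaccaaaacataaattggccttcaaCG
Dazl chr17:50284966-50285165: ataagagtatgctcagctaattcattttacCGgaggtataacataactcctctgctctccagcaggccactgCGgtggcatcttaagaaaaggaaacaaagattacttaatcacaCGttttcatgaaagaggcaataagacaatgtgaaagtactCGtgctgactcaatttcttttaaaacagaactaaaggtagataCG
The windows of Tmem200c, Asic2 and Otud7a were coding sequence over their whole length, those of Nos1, Mecom and Foxp2 held no exon, and that of Dazl held 51 bp of coding exon. The window of Otud7a had 46 CpG at 84.5% GC, those of Asic2 and Mecom 32 each at 78.5% and 75% GC, that of Tmem200c 26 at 78% GC, and that of Nos1 13 at 64% GC. The windows of Foxp2 had 5 and 3 CpG at 45% and 38% GC, and that of Dazl had 5 at 38.5% GC. The nearest annotated transcript start lay 576 bp from the window in Mecom, 893 bp from that in Asic2, 491 bp in Nos1, 4610 bp in Tmem200c, 3448 bp in Otud7a, 2416 bp in Dazl, and 99676 bp and 15595 bp in Foxp2.

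Members were spread over the body of long genes. They lay in 1882 main host genes, the gene with the greatest overlap, and these had a median length of 71.6 kb against 17.6 kb for all autosomal protein-coding genes. The median member began 46.7 kb from the start of its host (quartiles 16.5 and 133 kb). It was 9050 bp long, against 12800 bp for regions with a gene start and 8000 bp for intergenic regions, and the members together covered 36.9 Mb. Exons made up 6.49% of their length, and 1046 members (34.6%) lay wholly in intron, while 1700 (56.2%) touched coding sequence. The end of a protein-coding gene was held by 518 members (17.1%). Exons, gene ends, transcript starts and CpG windows were looked for over the whole region. This includes the 2.5 kb by which each peak was widened on each side, so they may lie outside the peak itself.

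The label holds for most members but not for all. In 463 members (15.3%) the annotation places the start of another transcript of a protein-coding gene, downstream of the gene's outermost start. In the RefSeq annotation of the same build, 2764 members (91.3%) overlapped a protein-coding gene without its start, 101 (3.34%) held a RefSeq gene start, and 161 (5.32%) overlapped no RefSeq protein-coding gene. Some GENCODE models are far longer than the RefSeq gene. The model of Fgfr2, a receptor for fibroblast growth factors, spanned 2961 kb, and only 6 of the 29 members it hosted overlapped a RefSeq protein-coding gene. For Gm20388, a model of 4435 kb on chromosome 8, this was 9 of 31, and for Gm37240 it was 0 of 9.

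Members with an internal start were richer in CpG than the others. The CpG-richest 200 bp window of a member held a median of 9 CpG, against 25.5 in regions with a gene start and 8 in intergenic regions. A window with at least 20 CpG was present in 310 members (10.2%), in 71.9% of regions with a gene start and in 3.92% of intergenic regions. It was present in 43.2% of members with an internal start and in 4.29% of members without one. The plot of CpG counts shows the curve of members with an internal start lying between those of gene-start and intergenic regions, while members without one follow the intergenic curve. Members with an internal start had a median of 36.8 normalised counts per kilobase in WT cells and 39.3 in MommeD43 cells, and those without had 33.1 and 34.6. Those with an internal start were also longer, with a median of 11750 bp against 8750 bp, and fewer came from 1 peak (32.8% against 45.6%). Length and number of peaks were not matched in these comparisons.

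**Figure D1:**
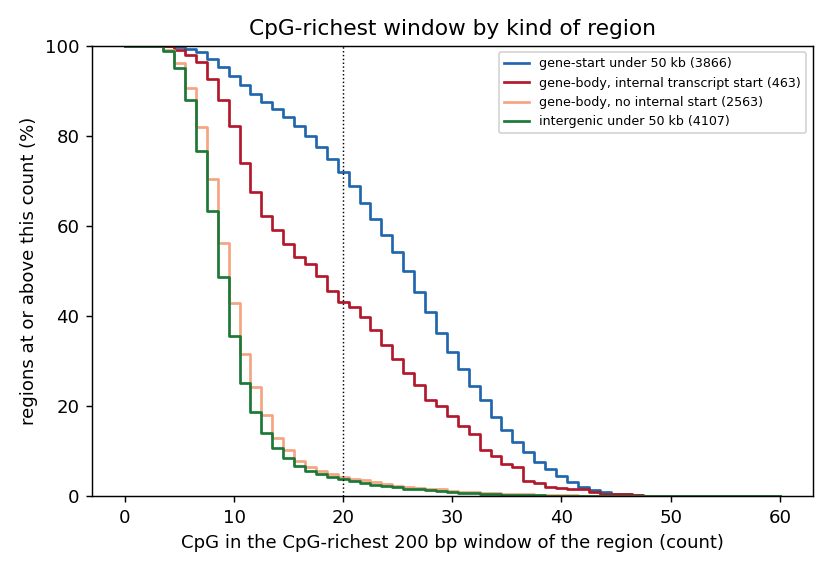
Share of regions (%, vertical axis) whose CpG-richest 200 bp window holds at least the number of CpG on the horizontal axis, for 4 kinds of autosomal region with the number of regions in brackets. At the dotted line of 20 CpG, 71.9% of gene-start regions, 43.2% of gene-body regions with an internal start, 4.29% of those without and 3.92% of intergenic regions remain.

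Levels of the mark in gene bodies were close to those in intergenic regions. Per kilobase, the median member had 33.5 normalised counts in WT and 35.2 in MommeD43. Regions with a gene start had 40.1 and 43.1, and intergenic regions 32.9 and 32.2. Members ranged from 5.33 to 252 per kilobase in WT and from 0.276 to 264 in MommeD43. Part of the gap to gene-start regions went with how many peaks had been joined. Among regions made from 1 peak, medians in WT were 28.5 in gene bodies, 29.5 at gene starts and 28.7 between genes, and among joined peaks they were 38.6, 44.3 and 37.3. Of the members, 1322 (43.7%) came from 1 peak, whose unwidened core had a median of 1350 bp.

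The depth behind these values was recovered from the log2 values themselves. The median member had 91.7 reads per library in WT cells and 116 in MommeD43 cells, each the geometric mean over the 3 libraries. The counting error of a difference had a median SE of 0.12 on the log2 scale, and 1871 members (61.8%) differed by more than their 95% counting interval, against 63.03% of autosomal, 66.8% of gene-start and 55.3% of intergenic regions. That interval leaves out all spread between cell lines.

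Density was ranked by the mean of the log2 counts per kilobase of both genotypes, and the 5 members at the top of that ranking differed by 0.06 to 0.38 on the log2 scale. A member in Mecom, which encodes a zinc finger transcription factor of blood stem cells, lay at chr3:30485301-30529900 and had 252 normalised counts per kilobase in WT cells and 264 in MommeD43 cells, a log2 difference of 0.07 ± 0.02 (counting SE). It held 3 internal transcript starts. A member in Runx2, the master regulator of bone formation, held 5 such starts at chr17:44722101-44745700 and had 149 and 159, a difference of 0.09 ± 0.03. In Otud7a, which encodes a deubiquitinase, the member at chr7:63747801-63769900 held 1 internal start and had 157 and 205, a difference of 0.38 ± 0.03. The member in Nacc2, which encodes a BTB domain repressor, had no internal start and had 162 and 185, a difference of 0.19 ± 0.03. The member in Gm37240 at chr3:84718851-84763000 had 149 and 156, a difference of 0.06 ± 0.02. Scaling the genotypes to equal totals over the table subtracts 0.24 from every difference, and under it the difference of Otud7a was 0.14 and those of the other 4 were below 0. Ranked by MommeD43 alone, the member next to that of Mecom lay in Meis1, a homeobox transcription factor gene, at chr11:18863301-18880300. It had 83.7 in WT and 256 in MommeD43, a difference of 1.61 ± 0.04, and 1.71 with the GC trend removed, and it overlapped no RefSeq protein-coding gene. In the plot of levels the 5 members lie between the 2-fold lines, and the Meis1 member lies above them.

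**Figure D2:**
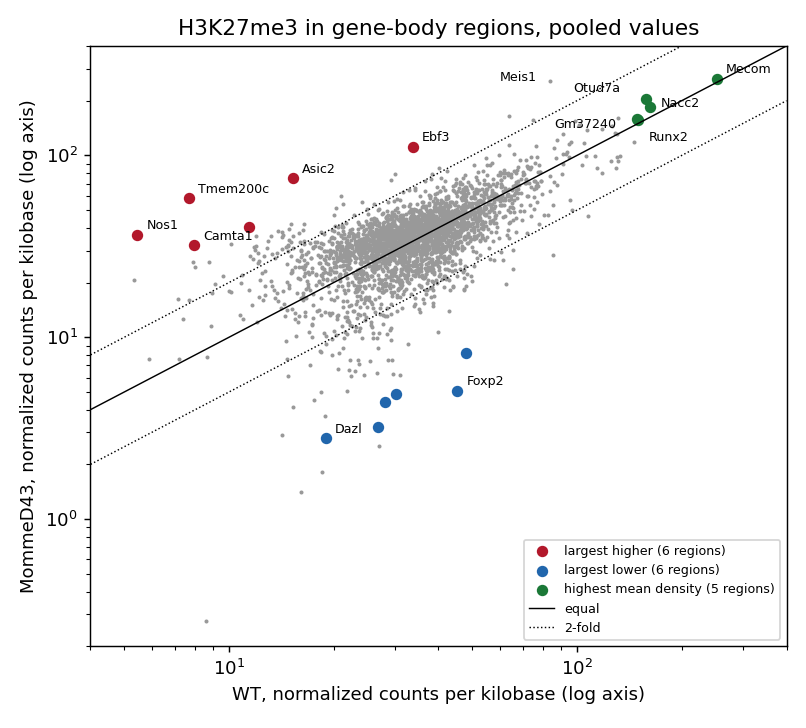
H3K27me3 in MommeD43 (vertical, log axis) against WT (horizontal, log axis) in normalised counts per kilobase for all 3026 gene-body regions in grey, with the 6 largest excesses, the 6 largest deficits (both among members with 50 or more reads per library in WT or MommeD43) and the 5 members of highest mean density in colour. The solid line is equality and the dotted lines are a 2-fold difference. The Meis1 member, in grey, has 83.7 in WT and 256 in MommeD43, and the single point at the bottom is a Slc25a21 region with 0.276 in MommeD43.

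Across all members the genotypes differed little on balance. The median difference, MommeD43 minus WT, was 0.08 on the log2 scale (quartiles -0.22 and 0.34, SD 0.54 over members), and 1732 members lay above 0. The medians were 0.15 for regions with a gene start, -0.04 for intergenic regions and 0.08 for all autosomal regions. Under equal totals the members' median was -0.16, and with the trend over GC content removed it was -0.01, so it has no fixed sign. A difference of at least 1, a factor of 2, was used as the limit for calling a region, with no test behind it. 69 members were higher in MommeD43 by this limit (2.28% of members), against 2.28% of all autosomal regions and 6.09% of all regions. 113 were lower (3.73%), against 2.93% of autosomal and 3.03% of all regions. The members' shares were close to those of autosomal regions in both directions.

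The difference followed the GC content of the region, in gene bodies as elsewhere. At 34 to 38% GC the median difference of 90 members was -1.09, at 38 to 42% it was -0.46 (389 members), and at 42 to 46% it was -0.05 (879). It was 0.15 at 46 to 50% (1004), 0.32 at 50 to 54% (551) and 0.37 at 54 to 58% (98). The MommeD43 values rose with GC content over most of this range, while those of WT rose and then fell. From 34 to 38% GC to 54 to 58% GC, the members' median normalised counts per kilobase went from 26.6 to 28.4 in WT, with a peak of 35.7 at 42 to 46%. In MommeD43 they went from 13.04 to 36.2, with a peak of 39.9 at 50 to 54%. Neighbouring regions share libraries, depth and base composition, so this is a description. Whether the GC content of the DNA took part in the differences through library preparation was not tested.

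**Figure D3:**
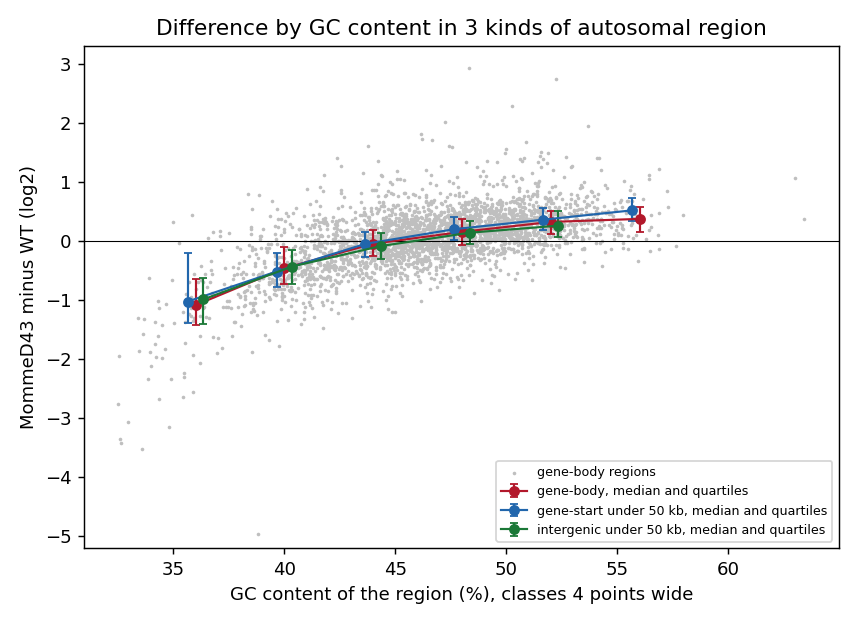
Difference of each gene-body region (grey points, log2) against its GC content (%), with medians and quartiles in GC classes 4 points wide for gene-body, gene-start and intergenic regions. The 3 curves run together, and the gene-body medians climb from -1.09 at 34 to 38% to 0.37 at 54 to 58%.

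At matched GC content, gene-body regions differed little from the other kinds. Before matching, the members' median difference lay 0.08 below that of gene-start regions and 0.11 above that of intergenic regions. Weighted over GC classes of 4 points, the gap to gene-start regions was -0.02 (6 classes, 3011 members) and that to intergenic regions 0.02 (5 classes, 2913 members). Removing the GC trend changed which members were called. With it taken out, 63 members were higher by at least 1 and 29 lower, of which 39 and 26 had been called before. These were 2.08% and 0.958% of members, against 1.84% and 0.683% of autosomal regions and 8.38% and 0.714% of all regions.

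The called members lay at opposite ends of the GC range. The 69 higher ones had a median GC content of 49.9% and fell in 40 hosts on 11 chromosomes. The 113 lower ones had a median of 37.6% and fell in 80 hosts on 18 chromosomes. Under 40% GC lay 82 of the lower ones and 0 of the higher ones. Wholly intronic were 38 of the higher ones (55.1%) and 54 of the lower ones (47.8%), against 34.6% of all members. Of 272 members on chromosome 11, 20 were higher, 8 of them in Asic2 and 5 in Slit3, and 1 was lower. Of 186 on chromosome 5, 11 were higher and 0 lower, and of 181 on chromosome 6, 0 were higher and 20 lower, 8 of these in Foxp2. Over all autosomal regions the shares were 2.28% and 2.93%. Members with at least 20 CpG in a window had a median difference of 0.19, and -0.02 with the GC trend removed.

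Position in the gene went with smaller gaps. Members within 10 kb of the host's start had a median difference of 0.16 (486 members), and those over 100 kb away had 0.01 (916). With host genes cut into 10 equal parts, medians ran from -0.02 in the part at the start (113 members) to 0.13 in that at the end (407). Members in intron alone had a median of -0.002, those touching coding sequence 0.11, and those holding a gene end 0.14. Members with an internal start had 0.12, and 10 were higher (2.16%) and 12 lower (2.59%) by at least 1, against 2.28% and 2.93% of autosomal regions. With the GC trend removed, these gaps shrank or turned. Medians were then 0.02 within 10 kb and -0.004 over 100 kb away, 0.03 in the part at the start and -0.01 in that at the end, -0.005 in intron alone, -0.02 with coding sequence, -0.02 with a gene end and -0.007 with an internal start.

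Members of the same gene often differed in the same direction. Of 232 hosts with at least 3 members, 60 had every member above 0, 52 had every member below 0 and 120 were mixed. Equal totals turned these counts into 28, 102 and 102, and GC removal into 34, 66 and 132. The SD of the difference over the 1059 members of these hosts was 0.63, and within hosts it was 0.37. With the GC trend removed, these SDs were 0.46 and 0.34. Members of a gene are neighbours and are not independent. In 931 hosts the gene's own start lay in another region of the table. Their median differences were 0.10 over the body members and 0.15 in the start region, with Pearson's r of 0.57 between them, and the body lay below the start region in 526 hosts. These values are on the deposited scale and were not computed with the GC trend removed. Pearson's r of the difference with GC content was 0.60 over gene-body regions and 0.55 over gene-start regions under 50 kb.

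**Figure D4:**
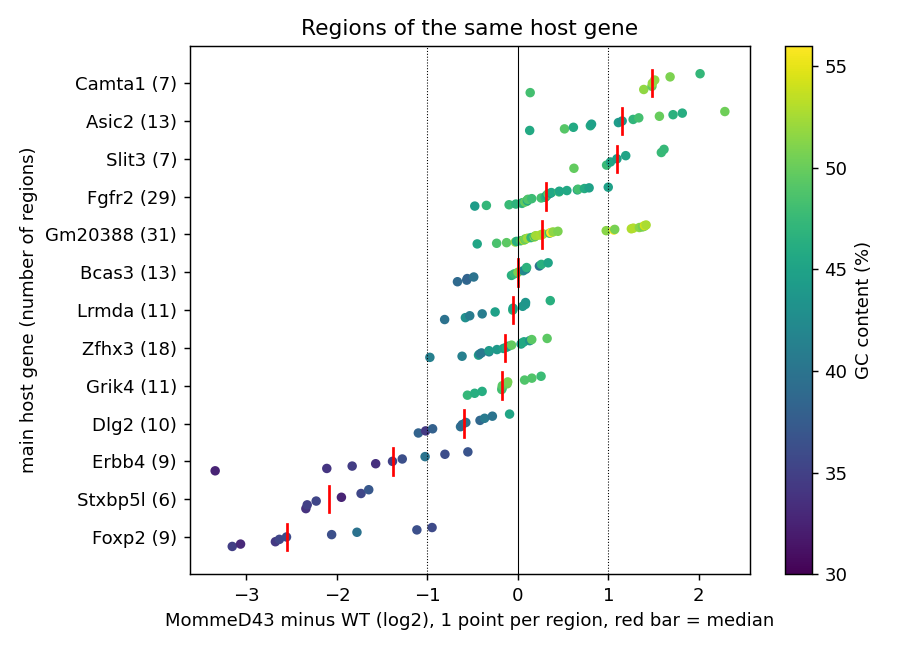
Difference between genotypes (log2, horizontal) of each gene-body region in 13 host genes, the 8 with most regions and 5 with many called regions, sorted by median (red bar). Points are coloured by GC content, and dotted lines mark a difference of 1. Asic2, Camta1 and Slit3 have every region above 0, and Foxp2, Stxbp5l, Erbb4 and Dlg2 have every region below 0.

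The 8 hosts with most members differed in direction. Gm20388 had 31 members with a median difference of 0.27 and a range of -0.45 to 1.42. Fgfr2 had 29, with a median of 0.31 and a range of -0.48 to 0.999. Zfhx3, which encodes a homeodomain zinc finger protein, had 18 with a median of -0.14 and a range of -0.97 to 0.32. Bcas3 had 13 with a median of 0.00, from -0.67 to 0.33, and Lrmda had 11 with a median of -0.06, from -0.81 to 0.36. In Zfhx3, Bcas3 and Lrmda no member reached a difference of 1 in either direction on the deposited scale. Equal totals took at least the lowest Zfhx3 member past that limit, to -1.21. Grik4, a kainate receptor gene, had 11 with a median of -0.17, and Dlg2, a postsynaptic scaffold gene, had 10 members that all lay below 0, with a median of -0.59. The median of Dlg2 was -0.01 once the GC trend was removed, and its start region differed by -1.37. Removal of the GC trend put Fgfr2 at 0.16, Gm20388 at -0.08, Bcas3 at 0.08, Zfhx3 at -0.07 and Lrmda at -0.04, and took Grik4 further from 0, to -0.41.

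Asic2, which encodes a proton-gated sodium channel of neurons, had the highest median of these 8 hosts. Its 13 members ran from 7.90 to 26.5 normalised counts per kilobase in WT and from 25.9 to 74.7 in MommeD43. Every member was higher in MommeD43, by 0.13 to 2.29 with a median of 1.15, and 8 passed 1. GC removal left the median at 1.15, and equal totals gave 0.91. The member with the largest difference lay at chr11:81145851-81159400, 809 kb from the gene's outermost start, around an internal transcript start and the CpG-rich coding window printed above. It had 15.3 in WT and 74.7 in MommeD43, a difference of 2.29 ± 0.11. A second, wholly intronic member at chr11:81441951-81453850 had 11.5 and 40.4, a difference of 1.82 ± 0.14. The region at the gene's start had 35.6 and 49.5, a difference of 0.47, less than in 12 of the 13 body members.

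Camta1 and Slit3 followed Asic2 in the number of members past 1, leaving aside the long model Gm20388. In Camta1, which encodes a calmodulin-binding transcription activator, 6 of 7 members passed 1, with a median of 1.49, and 1.18 with the GC trend removed. The highest, in intron at chr4:151481001-151488850, had 7.92 in WT and 32.0 in MommeD43, a difference of 2.01 ± 0.21. The exception, at chr4:150943401-150958150 near the gene's end, had 38.8 and 42.6, a difference of 0.14 ± 0.08. In Slit3, which encodes a secreted ligand of Robo receptors, all 7 members were higher, by 0.62 to 1.61 with a median of 1.10, and by 0.33 to 1.44 with the GC trend removed. Its start region had 22.1 in WT and 83.4 in MommeD43, a difference of 1.92.

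The other largest excesses, among members with 50 or more reads per library in WT or MommeD43, lay in Tmem200c, Nos1 and Ebf3. A member in Tmem200c at chr17:68832651-68845600, with an internal transcript start, had 7.67 normalised counts per kilobase in WT cells and 58.3 in MommeD43 cells, a difference of 2.93 ± 0.16. It rested on 30.4 reads per library in WT and 287 in MommeD43. A member in Nos1, the neuronal nitric oxide synthase gene, had 5.46 and 36.6 at chr5:117836151-117846700, a difference of 2.74 ± 0.21. It held an internal start of the GENCODE model and overlapped no RefSeq protein-coding gene. A member in Ebf3, which encodes a transcription factor of neuronal differentiation, had 33.8 and 112 at chr7:137193651-137220100, a difference of 1.72 ± 0.06. With the GC trend removed, these differences were 2.71, 2.38 and 1.63.

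The 9 higher members in the long model Gm20388 fell mostly in 1 stretch of chromosome 8. From chr8:120866301 to chr8:121047250, 5 members had differences between 1.07 and 1.42. The nearest protein-coding gene start was that of Foxf1, a forkhead gene of mesoderm, for 4 of them, at 37.1 to 145 kb. For the other it was that of Irf8, at 130 kb. The densest, at chr8:120866301-120907900, had 63.6 normalised counts per kilobase in WT cells and 165 in MommeD43 cells, a difference of 1.38 ± 0.03. With the GC trend removed, those 5 lay between 0.76 and 1.07. None of the 9 overlapped a RefSeq protein-coding gene, so by that annotation they are intergenic.

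Foxp2, a forkhead transcription factor gene known for its part in vocal learning, held 5 of the 6 largest deficits among members above the same read minimum. Its 9 members had 14.7 to 57.8 normalised counts per kilobase in WT and 3.20 to 26.7 in MommeD43. All were lower in MommeD43, by -0.95 to -3.16 with a median of -2.56, and 8 passed -1. The lowest, at chr6:15277101-15299800, had 45.4 and 5.09, a difference of -3.16 ± 0.13, on 315 and 43.9 reads per library. The member at chr6:15174351-15206200, with 9 internal transcript starts, had 48.1 and 8.18, a difference of -2.56 ± 0.09. The start region of the gene had 49.0 and 26.2, a difference of -0.90. GC content in these members was 33.0 to 39.8%, and with the GC trend removed 7 of them stayed below -1 while the 2 nearest the gene's end came to 0.09 and -0.08. The fitted GC trend was held flat at -1.04 below 36.6% GC, where 8 of these 9 members lay, so any further fall of the trend with GC below that point was not removed. Of the 29 members still lower by at least 1 after GC removal, 15 lay in that flat end.

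**Figure D5:**
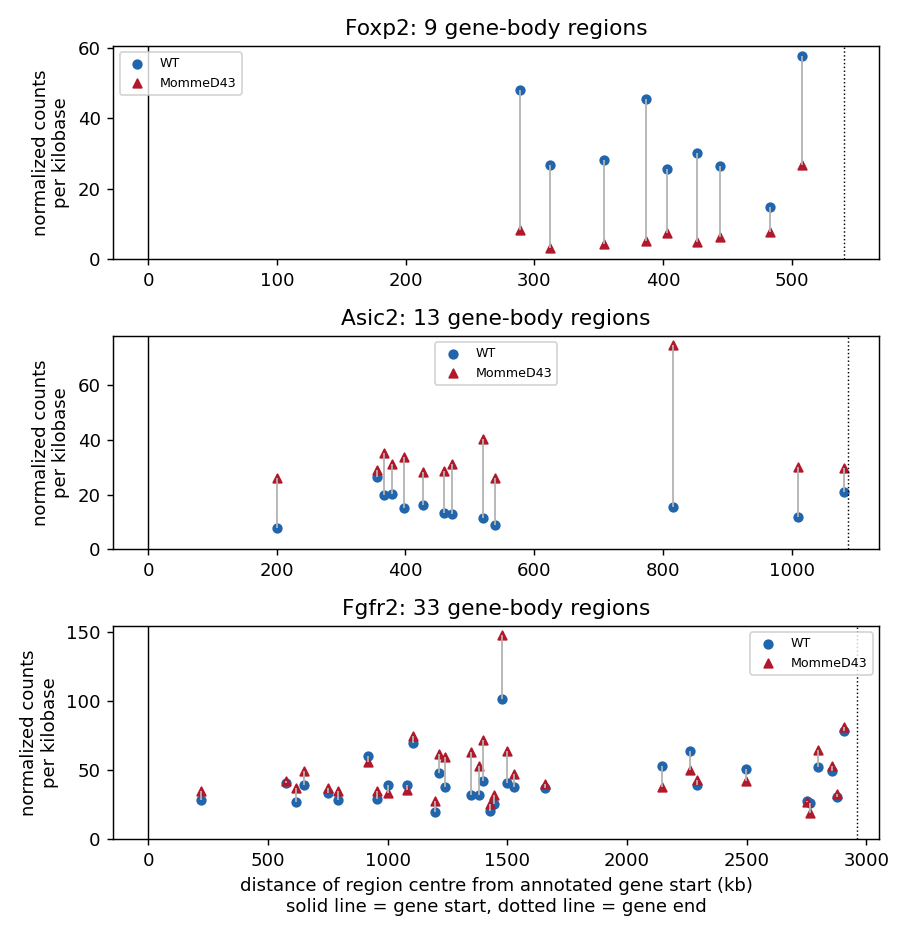
Normalised counts per kilobase (vertical) in WT (blue circles) and MommeD43 (red triangles) for each gene-body region of Foxp2, Asic2 and Fgfr2 by distance from the annotated gene start (kb). WT lies above MommeD43 in all 9 Foxp2 regions and below it in all 13 Asic2 regions, while Fgfr2, with 33 regions that overlap the gene, is mixed.

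Every member was also lower in Stxbp5l, Erbb4 and Adamtsl1, and these too were AT-rich. Stxbp5l, which encodes a tomosyn that binds synaptic fusion proteins, had 6 members at 17.5 to 31.0 normalised counts per kilobase in WT and 3.71 to 7.48 in MommeD43. Their differences ran from -2.34 to -1.65 with a median of -2.09, and the start region also differed by -2.09. Erbb4, which encodes a neuregulin receptor, had 9 members from -3.34 to -0.55 with a median of -1.39, while its start region had 43.1 and 40.8, a difference of -0.08. With the GC trend removed, the medians were -1.05 in Stxbp5l and -0.50 in Erbb4. The Erbb4 members then ran from -2.31 to 0.46, so not all were lower. In Stxbp5l, 5 of the 6 members lay in the flat end of that trend. In Adamtsl1, which encodes a secreted matrix protein, all 8 members were lower with a median of -0.67. This was -0.10 after GC removal, with a range of -0.33 to 0.20. A member in Dazl, a germ cell gene for an RNA-binding protein, had 18.9 and 2.79 at chr17:50278701-50292250, a difference of -2.76 ± 0.24, and -1.73 with the GC trend removed, also in the flat end.

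Of the 229 members below that read minimum, 4 had a larger deficit than any member above it. These lay in Slc25a21 (-4.96 ± 0.90), Pkhd1l1 (-3.52 ± 0.51), Kcnh7 (-3.42 ± 0.37) and Erbb4 (-3.34 ± 0.42), with counting SE, and an excess of 1.95 ± 0.29 lay in Caln1. The MommeD43 value of the Slc25a21 member, at chr12:57183651-57192250, corresponded to 0.90 reads per library, so the size of its difference is poorly measured.

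Gene groups with roles in neurons and development were counted by the genes that hosted members. Of all 20780 autosomal protein-coding genes, 1964 (9.45%) overlapped a member. Where the largest difference of a group is given below, it is the largest above the read minimum. Of 246 developmental transcription factor genes 35 (14.2%) did, although 188 of them had their start in a region of the table. These 35 genes held 94 members with a median difference of 0.07, of which 3 were higher and 8 lower by at least 1, all 8 lower ones in Foxp2. Over all autosomal regions 2.28% were higher and 2.93% lower, and these shares are the background for the counts of each group below. The median was -0.17 under equal totals. Zfhx3 held 18 of these members and Mecom held 8.

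The share of genes with a member in each receptor and channel family is set beside the 9.45% of all autosomal protein-coding genes, and that of GABA-A receptors was near it. Ionotropic glutamate receptors hosted members in 6 of 17 genes (35.3%), with 24 members, a median difference of 0.05, 2 higher and 1 lower by at least 1. The largest difference on the deposited scale was in Grik3, a kainate receptor gene, at 1.33 ± 0.19, with 14.2 normalised counts per kilobase in WT cells and 35.7 in MommeD43 cells. GABA-A receptors hosted them in 2 of 16 genes (12.5%) with 1 member each, the larger difference being -0.66 in Gabrb1, and -0.13 with the GC trend removed. Voltage-gated calcium and sodium channels hosted them in 14 of 31 genes (45.2%), with 36 members, a median of -0.03 and none past 1 either way, or 1 higher with the GC trend removed. Members also lay in 7 of 39 voltage-gated potassium channel genes (17.9%), with 9 members, 1 higher and 2 lower, and the largest difference was -1.31 ± 0.12 in Kcnh7, at a member with -0.27 once the GC trend was removed. Host length was not matched in these counts, and these families include very long genes.

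Members in synaptic and neuronal adhesion genes were mostly below 0, and those in axon guidance genes were mixed. In 16 of 58 genes for synaptic and neuronal adhesion (27.6%) there were 52 members, 14 of them above 0, with a median of -0.29. None was higher and 5 were lower by at least 1, against 2.28% and 2.93% of autosomal regions. With the GC trend removed only 1 was lower by at least 1, and under equal totals 6 were. Removing the GC trend gave a median of -0.21, and removing the abundance trend gave -0.34. Dscaml1 held 9 of these members, and the largest difference was -1.47 ± 0.09 in Tenm3, a teneurin gene, at a member with 4 internal transcript starts. In 21 of 69 axon guidance genes (30.4%) there were 42 members with a median of 0.16, which was -0.04 with the GC trend removed. Of these members 5 were higher and 3 lower by at least 1, the 5 higher ones all in Slit3. With the GC trend removed 6 were higher and 1 lower, and under equal totals 2 were higher and 4 lower. Cadherins and non-clustered protocadherins had 23 members in 13 of 40 genes with a median of 0.13 and none past 1 on the deposited scale, and the largest difference was -0.83 in Fat3. This was -1.07 under equal totals, where 2 cadherin members were lower by at least 1, and 1 was higher by that much with the GC trend removed. Under equal totals the medians were -0.20 for glutamate receptors, -0.08 for axon guidance genes and -0.11 for cadherins, each below 0.

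In matrix, signalling, chromatin and neural stem cell genes no member reached a difference of 1 on the deposited scale. Collagens, laminins and Adamts proteases had 45 members in 20 of 77 genes, with a median of -0.11, and the lowest was -0.93 in Col12a1, which came to -1.17 under equal totals, where 4 of these members were lower by at least 1. With the GC trend removed 1 was. Genes of Wnt, Fgf and Bmp signalling had 43 members in 10 of 87 genes, of which 33 overlapped Fgfr2, with a median of 0.15 that was -0.09 under equal totals. Only 20 of the 43 overlapped a RefSeq protein-coding gene. The largest difference there was 0.999 ± 0.09, in the GENCODE model of Fgfr2 but outside any RefSeq protein-coding gene, and it was 1.02 with the GC trend removed. Under equal totals 1 signalling member was lower by at least 1. Chromatin and Polycomb genes had 2 members in 38 genes, in Cbx7, a PRC1 subunit gene, and in Jarid2, a PRC2 cofactor gene, whose member differed by 0.40 ± 0.07. Neural stem cell genes had 4 members in 2 of 25 genes, 3 of them in Msi2, and the largest difference there was 0.61 ± 0.11.

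As a check of the cells, gene starts of markers were placed on the table. The start lay in a marked region for 5 of 14 NSC markers, for 4 of 5 muscle and mesoderm markers and for 5 of 5 endoderm markers. It did for 2 of 5 microglia, 2 of 4 endothelium, 3 of 5 mature neuron, 1 of 2 astrocyte and 2 of 3 oligodendrocyte markers. None of those 14 NSC markers, a list that does not hold Msi2 or Nfib, hosted a member, while Cx3cr1 and Csf1r of the microglia list, Mbp and Mobp of the oligodendrocyte list and Rbfox3 of the mature neuron list did. This is a check on H3K27me3 and does not measure expression.

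At the edges of the rule, members and excluded regions lay close to each other in length and position. The members in Garnl3 (49850 bp) and D430041D05Rik (49700 bp) differed by -0.20 and -0.36, and the first regions left out, in Myo1d (50000 bp) and Tmem260 (50150 bp), by -0.50 and 0.47. The members nearest to any protein-coding gene start, 1 bp and 36 bp away, lay in Exosc3 and Lcmt1 and differed by -0.07 and 0.08. The regions that just held a start were those of Crb2 and Ccdc180, with the start 1 bp and 2 bp inside the edge and differences of 0.28 and 0.07. In all, 342 members lay within 5 kb of a gene start.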

How the data were processed

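ChIP-seq for H3K27me3 (antibody C36B11) was done on 3 libraries per genotype, with 1 WCE library per genotype. Fragmentation is given as micrococcal nuclease in the labels but as shearing in the methods, and cannot be settled here. The authors trimmed reads with Trim Galore 0.4.4, aligned them to GRCm38.p6 with Bowtie2 2.3.4.1, called peaks on merged replicates in SeqMonk, widened them by 2.5 kb on each side and joined those within 1 kb of each other. The deposited values are log2 read counts per region, scaled by the authors to library size and given as a mean for each genotype, with no division by length and no WCE subtraction. Single libraries and WCE were not analysed here.

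The difference is MommeD43 minus WT. With pooled columns no test was run. Counts per kilobase are the antilog divided by length. Reads per library were recovered from the whole-number steps of the product of the 3 counts behind each mean. Below a product of 30000, 1138 of 1139 WT values (99.9%) and 681 of 684 MommeD43 values (99.6%) were whole within 0.1. A read was worth 3.27 normalised counts in WT and 2.63 in MommeD43. The counting SE assumes Poisson counts spread evenly over libraries and covers counting error only.

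GC trends were running medians over 40 bins, fitted on autosomal regions and held flat beyond the outermost bin centres. Named members were the 6 largest differences each way with 50 or more reads per library in WT or MommeD43, the 5 with the highest mean log2 density over both genotypes, the 8 hosts with most members, those nearest the limits, and for each gene list its top host and largest difference. Camta1, Erbb4, Stxbp5l, the Meis1 member, the Gm20388 stretch and the members below the read minimum were chosen after their values were seen. The members and lists were chosen with earlier results of these data known. Alternatives were other scalings, trend removal, a mean count of 50, a pseudocount of 10 and stricter member rules, of which agreement with RefSeq was added after seeing the data. The tools were pysam 0.24.0, pandas 2.3.3, numpy 2.4.6, scipy 1.17.1 and matplotlib 3.10.9 under Python 3.11.15. Recovery of reads and trends was tested on simulated data.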

Additional observations from a re-analysis of the deposited data

How the results depend on the processing

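The members' median log2 difference of 0.08 turned to -0.16 under equal totals over all regions. It was -0.014 after removal of the GC trend, -0.017 after that of the abundance trend and 0.0022 when centred on the autosomal median. The 69 higher members became 37 under equal totals. The 113 lower members became 194 under equal totals, 29 with the GC trend removed and 67 at a mean count of at least 50. On the log2 scale, median counts per kilobase in WT were 5.07, and became 5.14 at that minimum and 5.12 with the pseudocount. In MommeD43 they were 5.14, and became 4.90 under equal totals, 5.06 when centred, 5.02 with the GC trend removed, 5.07 with the abundance trend removed, 5.20 at the minimum, 5.18 with the pseudocount and 5.11 without internal starts. The gap to gene-start regions went from -0.08 to -0.028 and that to intergenic regions from 0.11 to 0.0052 with the GC trend removed. The cause was not tested.

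Values per library were not analysed here, so leaving out single libraries and the replicate block were not run. No paired analysis was possible because each genotype has 1 pooled value. Read counts limit the precision of single members, most of all the 9 with fewer than 10 reads per library in MommeD43.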
